A study of Cavia porcellus with 30 samples.

Results

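The comparison was between cultured guinea pig kidney cells exposed to 30 µM mercuric chloride and the same cells given vehicle, 24 h after exposure began. The members were the libraries whose labels give the low dose or vehicle together with the 24 h time point. These were 10 of the 30 libraries of the series, 5 in each group. All of the cells were primary renal proximal tubular epithelial cells of Hartley guinea pigs (Cavia porcellus), isolated from animals 6 to 8 weeks old. Per the methods of the study, the cells were first grown to a monolayer and replated, and they then spent 48 h in the medium used as vehicle before exposure. The vehicle was Hepatocyte Maintenance Medium, which both groups received, with mercuric chloride added in one of them. The other 20 libraries were vehicle, 30 µM and 40 µM at 12 h and 40 µM at 24 h, and they are used only where they show how the 24 h response at 30 µM differed. The labels do not say whether the 5 libraries of a group came from separate animals, isolations or wells, so the p-values measure the spread between these libraries, which may be technical.

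The proximal tubule takes back most of the glucose, amino acids, phosphate and filtered protein from the primary urine, and it is the segment of the nephron in which inorganic mercury collects after exposure. Mercuric ions bind tightly to sulfhydryl groups, as in glutathione, metallothioneins and the cysteine residues of enzymes. Loss of these thiols, oxidative stress and death of tubular cells are the textbook features of kidney injury by mercuric chloride.

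Each library was described by an estimated count for each of 25824 Ensembl transcripts. Library totals were 21651452 to 33997378 estimated counts in the vehicle group and 24506644 to 35021210 at 30 µM. A count in at least 1 of the 10 libraries was present for 22380 transcripts, and 3444 had none. Neither the deposited files nor the gene table used here pairs the identifiers with gene symbols, so transcripts are given by identifier, few are printed, and no pathway or marker of tubular cells was examined. Levels are given as CPM (the count scaled to a fixed normalised library total) for one transcript across libraries and as TPM (corrected for transcript length) where transcripts are compared with each other. In bulk RNA of this kind, fewer cells of a type and less RNA per cell cannot be told apart.

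One 30 µM library, replicate 5 with the title number 29, stood apart from the rest of its group. Pearson's r of log2 levels across transcripts was 0.959 to 0.97 among the other 4 libraries at 30 µM and 0.956 to 0.966 among the vehicle libraries, but 0.937 to 0.942 between replicate 5 and the other 4. Its total of 24506644 estimated counts lay within the range of the other libraries. On the first principal component, which carried 22.5% of the variance over 16607 transcripts, replicate 5 scored 90.9, the other 4 libraries at 30 µM scored from -2.8 to 10.1, and vehicle scored from -25.5 to -15.2. The second component, with 16.9% of the variance, placed vehicle between -33.6 and -10.3, those 4 libraries between 27.4 and 36.6, and replicate 5 at -28.5, on the side of vehicle. Without replicate 5 the first component alone (22.4%) separated the groups, with vehicle at -39.9 to -16.9 and 30 µM at 26.0 to 38.8. Because replicate 5 stood apart in these measures, the results below are given with and without replicate 5.

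At 24 h, 30 µM mercuric chloride changed the level of 3492 of 16607 transcripts tested (21.0% called at a Benjamini-Hochberg adjusted p under 0.1, edgeR quasi-likelihood test), of which 1752 rose (10.5%) and 1740 fell (10.5%). The called changes were mostly small, with a median size of 0.31 on the log2 scale, or 1.24-fold, and 70.7% of them under 0.5 log2. Changes of at least 2-fold were called for 314 transcripts (1.89%), with 206 higher (1.24%) and 108 lower (0.65%). By limma on log2(TPM + 1) they numbered 139. Of the 16607 tested, a change of 4-fold was reached by 39 rises and by 4 falls, ENSCPOT00000002137.3 among the falls.

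Without replicate 5, the count grew to 4802 of 16890 (28.4%), with 2379 higher (14.1%) and 2423 lower (14.3%). The median size was then 0.26, or 1.2-fold, and 77.1% of the calls were under 0.5 log2. The count of changes of at least 2-fold moved less, to 344 (2.04%), 208 of them higher (1.23%) and 136 lower (0.805%). With these 9 libraries 44 rises and 14 falls of the 16890 tested reached 4-fold. An 8-fold fall was reached by 7 of them, against 0 with all 10 libraries. Of the calls under 1 CPM 76.9% were at least 2-fold, and the level of the large falls is not given here. The split between rises and falls was not the same by limma on log2(TPM + 1), a change of scale, normalisation and test together. There 39.0% of the calls were rises with all 10 libraries, against 50.2% by edgeR on counts, and 44.9% without replicate 5, against 49.5%.

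The spread between replicates moved with this library. The median standard deviation of log2 CPM over transcripts was 0.113 in vehicle, 0.148 at 30 µM, and 0.095 at 30 µM without replicate 5. The biological coefficient of variation fitted by edgeR was 19.5% with it and 16.5% without it. The standard error of a log2 fold change was, at the median, 0.094 with it and 0.08 without it. When each library was weighted by its own spread (limma-voom), replicate 5 received a weight of 0.17 and the others 0.64 to 1.5, and 5200 transcripts were called.

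The 2 fits share 9 libraries and called 3382 transcripts in common, which is 96.8% of the calls with replicate 5 and 70.4% of the calls without it, all in the same direction. In this common set replicate 5 was changed about as much as the others, with a median of 0.32 log2 from the vehicle mean against 0.3 for the other 4 libraries. Among transcripts tested in both fits, a further 1404 were called only when replicate 5 was left out (678 higher, 726 lower), and 16 more calls were of transcripts tested only in its absence. In 1316 of them (93.7%) replicate 5 was less changed than the other 4, and in 1084 (77.2%) it lay on the other side of the vehicle mean, with a median of -0.1 against 0.18 in the direction of the call. These 1404 were picked by the removal of replicate 5, and the common set by calls in a fit that included it. The position of replicate 5 in either set follows in part from that choice and is a description. Of the changes of at least 2-fold, 276 were called in both fits, 87.9% of those with replicate 5 and 80.2% of those without it.

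How often a transcript was called, and how large its called change was, went with its level. With all 10 libraries, 6.75% of transcripts under 1 CPM were called, 13.7% at 1 to 5 CPM, 18.9% at 5 to 20, 25.0% at 20 to 100 and 38.6% over 100. With 9 libraries the same classes gave 7.04%, 15.3%, 25.0%, 37.2% and 53.5%. The median size of a called change ran the other way, from 1.13 log2 under 1 CPM to 0.22 over 100 CPM with all libraries, and from 1.33 to 0.18 without replicate 5. A transcript with few counts is measured less precisely and is called only where its change is large. Both trends are therefore descriptions of the calls, and whether the response itself depended on level was not tested.

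**Figure D1:**
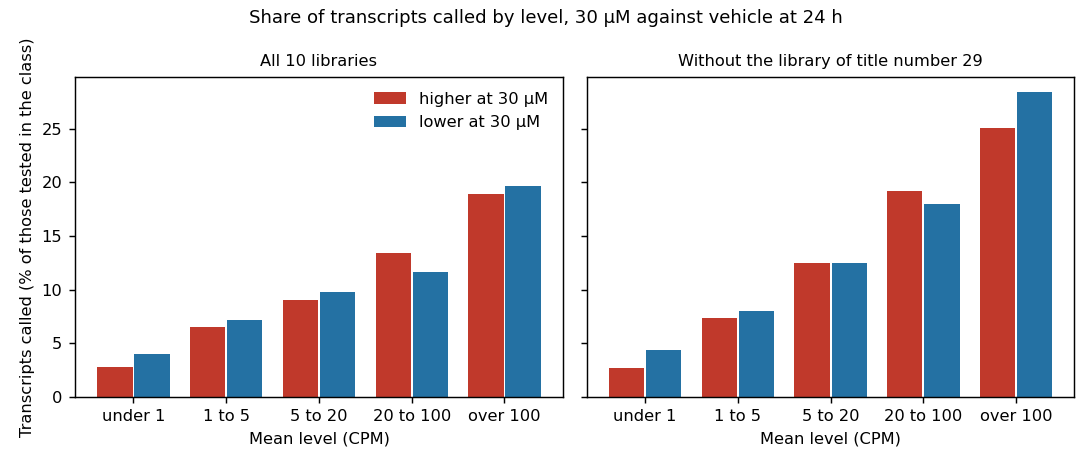
Share of tested transcripts (%, vertical axis) called higher (red) or lower (blue) at 30 µM than in vehicle at 24 h, in 5 classes of mean level (CPM), with all 10 libraries (left) and without replicate 5 of title number 29 (right). The called share rises with level in both panels, from 6.75% to 38.6% on the left and from 7.04% to 53.5% on the right.

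Transcript length moved with the direction of the calls when replicate 5 was left out. Without it, 6.23% of transcripts of up to 500 bases were called higher and 11.3% lower, while of those over 4000 bases 16.8% were higher and 12.9% lower. With all 10 libraries these shares were 5.88% and 6.47% for the short class and 11.2% and 11.0% for the long class. Replicate 5 itself was above the other 4 libraries by a median of 0.096 log2 for transcripts of up to 500 bases and below them by a median of -0.079 log2 for those over 4000 bases. Across transcripts, Spearman's rho between this deviation and length was -0.184 in replicate 5, 0.024 to 0.165 in the other 4 libraries, whose comparison means include replicate 5, and -0.139 to 0.131 in vehicle. In the 20 libraries of the other groups it ran from -0.15 to 0.217. The value of replicate 5 was therefore the most negative of the series, though not far below the lowest of the other groups. The value of 0.217 was greater in size but of the opposite sign. The part of length in the calls was not tested.

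Fewer transcripts than were called had separate values in every library. The CPM of the 2 groups did not overlap for 1350 transcripts that were higher at 30 µM (8.13%) and 1253 that were lower (7.55%). Without replicate 5 these counts were 1966 (11.6%) and 1892 (11.2%), together 22.8% of those tested against 15.7% with it. From them, 1192 transcripts (597 higher, 595 lower) also were called in the same direction in both fits, had estimates within 0.001 of a whole number in all 10 libraries and averaged at least 50 counts. In each direction, the transcript with the largest log2 fold change and the one with the largest difference of mean CPM are described here. Since they were chosen on these libraries for separate groups and for size, their separation, fold changes and p-values were favoured by the choice.

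The transcript with the largest log2 rise was ENSCPOT00000044307.1, which is 678 bases long and scarcely present in vehicle, where it ranked 14930 by TPM. Its vehicle levels were 0.251, 0.326, 0.441, 0.233 and 0.351 CPM, from 6 to 15 counts per library, so that it met the minimum of 50 counts through the exposed libraries alone. At 30 µM its levels were 27.4, 31.0, 27.0, 24.9 and 29.6 CPM, the last in replicate 5. Every exposed library was far above every vehicle library, and replicate 5 lay among the others. The means were 0.321 ± 0.0837 (SD, n = 5) and 28.0 ± 2.35 CPM (SD, n = 5), an 84.1-fold difference (log2 fold change 6.39, SE 0.13, edgeR adjusted p = 3.86e-10). Leaving out replicate 5 gave a log2 fold change of 6.37 (SE 0.13, edgeR adjusted p = 4.75e-10). Per length, it went from 1.02 ± 0.278 to 87.1 ± 6.69 TPM (SD, n = 5 each).

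The largest rise in CPM was that of ENSCPOT00000025069.2, a transcript of 1261 bases that ranked 85 by TPM in vehicle. It stood at 1097, 1221, 1080, 1089 and 1079 CPM in the vehicle libraries. At 30 µM it stood at 3715, 3686, 3917, 3862 and 4675 CPM, with replicate 5 the highest. The groups were far apart. The vehicle libraries lay between 1079 and 1097 CPM apart from replicate 2 at 1221 CPM. Its means were 1113 ± 60.8 and 3971 ± 405 CPM (SD, n = 5 each), a 3.56-fold rise of 2858 CPM (log2 fold change 1.83, SE 0.07, edgeR adjusted p = 1.45e-08). With replicate 5 left out, the exposed mean was 3795 ± 112 CPM (SD, n = 4) and the log2 fold change 1.77 (SE 0.04, edgeR adjusted p = 6.05e-10), so that leaving out 1 library narrowed the standard deviation from 405 to 112 CPM.

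The largest log2 fall under the same rule was that of ENSCPOT00000002137.3, of 1065 bases, which ranked 9958 by TPM in vehicle. In vehicle it was present at 3.68, 3.87, 3.97, 4.01 and 4.14 CPM. At 30 µM it was present at 0.962, 0.705, 0.774, 1.31 and 1.09 CPM, from 19 to 45 counts per library, so that it met the minimum of 50 counts through the vehicle libraries. The highest exposed library was well below the lowest vehicle library, and replicate 5 was within the range of its group. Means were 3.93 ± 0.174 and 0.969 ± 0.244 CPM (SD, n = 5 each), which is 4.04-fold lower (log2 fold change -2.02, SE 0.18, edgeR adjusted p = 2.1e-05). Without replicate 5 the log2 fold change was -2.06 (SE 0.2, edgeR adjusted p = 4.07e-05).

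The largest fall in CPM belonged to ENSCPOT00000000349.3, a long transcript of 7427 bases that ranked 96 by TPM in vehicle. The vehicle libraries held 6670, 7312, 7223, 7116 and 7012 CPM. The exposed libraries held 6316, 6222, 5854, 6464 and 5444 CPM, with replicate 5 the lowest. The groups did not overlap, but the gap between the lowest vehicle and the highest exposed library was small beside the spread within each group. Means of 7067 ± 249 and 6060 ± 411 CPM (SD, n = 5 each) gave a 1.17-fold fall (log2 fold change -0.22, SE 0.05, edgeR adjusted p = 0.00737). When replicate 5 was left out, the exposed mean was 6214 ± 260 CPM (SD, n = 4) and the log2 fold change -0.19 (SE 0.03, edgeR adjusted p = 0.00223). In this transcript, then, a large difference of reads was a small relative change.

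**Figure D2:**
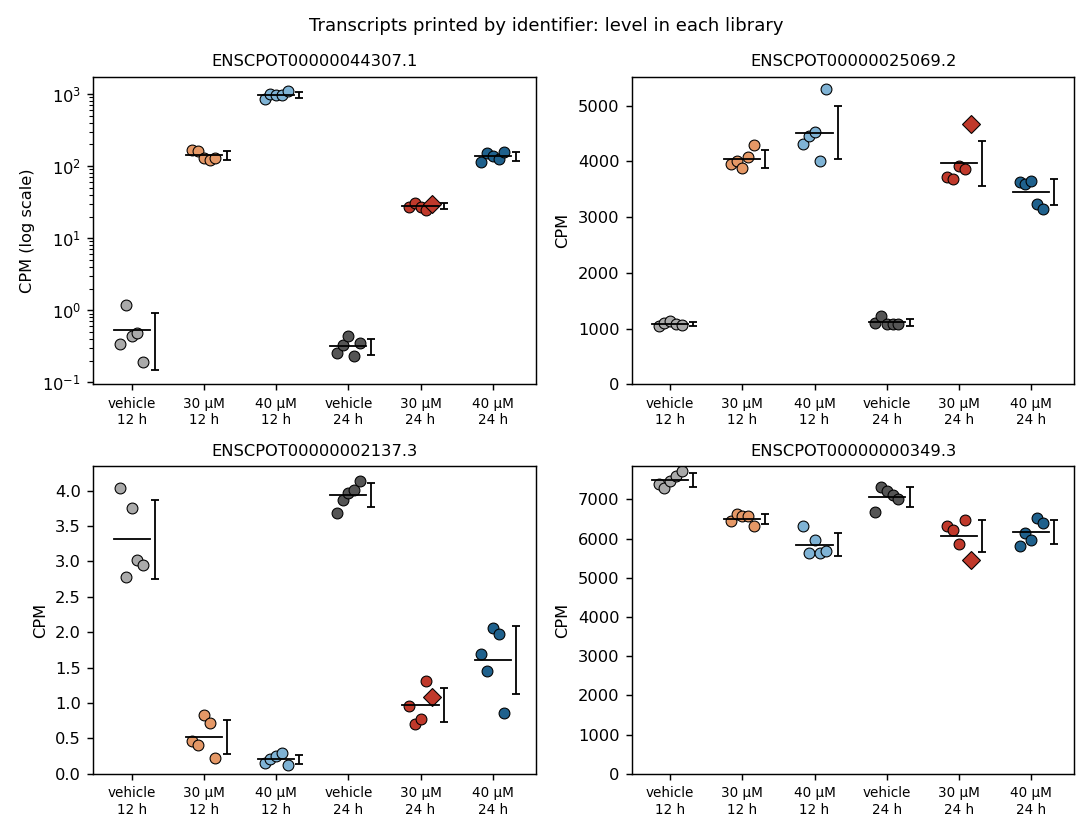
Level (CPM, vertical axis, logarithmic in the first panel and from 0 in the others) of the 4 transcripts named by identifier in each of the 30 libraries, by group, with a line at the mean and a bar of 1 SD on each side; the diamond is replicate 5 of 30 µM at 24 h. In all 4 panels the 30 µM libraries at 24 h lie on one side of the vehicle libraries, for example 24.9 to 31.0 against 0.233 to 0.441 CPM in the first.

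The weight of the response in the RNA pool was uneven. The 183 transcripts that rose at least 2-fold in both fits took 0.887% to 0.931% of all counts in the vehicle libraries. At 30 µM they took 2.75%, 2.79%, 2.91%, 2.86% and, in replicate 5, 3.16%. The 93 transcripts that fell at least 2-fold in both fits took 0.122% to 0.125% in vehicle and 0.0528% to 0.0536% at 30 µM. These transcripts were chosen on the same libraries, so the shares describe their abundance and are not a test.

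The gross composition of the libraries was not shown to differ. The 10 transcripts most abundant in vehicle at 12 h, libraries outside this comparison, took 10.04% ± 0.121 of the counts in vehicle at 24 h and 10.13% ± 0.336 at 30 µM (SD, n = 5 each, difference 0.0814 percentage points, two-sided exact permutation p = 0.643, adjusted p = 0.96 over the 3 permutation tests). Without replicate 5, which had the lowest share at 9.594%, the difference was 0.214 points (exact permutation p = 0.0714). Transcripts with at least 1 count numbered 19039 ± 176 in vehicle and 19029 ± 373 at 30 µM (SD, n = 5 each, exact permutation p = 0.96, adjusted p = 0.96). Without replicate 5, which had the fewest at 18510, the exposed mean was 19159 ± 270 (SD, n = 4, exact permutation p = 0.421).

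The 12 h libraries gave a measure of the response that none of the 24 h libraries had a part in choosing. At 12 h, 30 µM changed 4837 of 16698 transcripts (29.0%), of which 2505 rose (15.0%) and 2332 fell (14.0%). For each 24 h library, the difference from the vehicle mean was taken for these transcripts on log2(CPM + 0.5), signed by the direction at 12 h, and the median was recorded. The vehicle libraries gave from -0.004829 to 0.00506. Their own mean was the reference, so their closeness to it follows from the measure. The libraries at 30 µM gave 0.1658, 0.1686, 0.1754, 0.1698 and, in replicate 5, 0.238. All 5 exposed libraries were thus above all vehicle libraries, and replicate 5 was above the other 4.

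The difference of the group means in this measure was 0.184 (two-sided exact permutation p = 0.00794, the smallest that 5 against 5 can give, adjusted p = 0.0238 over the 3 permutation tests, higher in 5 of 5 libraries). With the other 4 exposed libraries alone the difference was 0.17 (exact permutation p = 0.00794), and the exposed mean was 0.1699 ± 0.004 (SD, n = 4). The 24 h vehicle mean was subtracted before the labels were permuted and was not recomputed for each permutation. The vehicle values were thereby held close to that mean, so the groups were not exchangeable. These p-values are therefore not a test of the response. The excess of replicate 5 was present for transcripts that rose at 12 h, with 0.23 against 0.147 to 0.1526 in the other 4, and for those that fell, with 0.252 against 0.1861 to 0.2002. The 323 transcripts changed at least 2-fold at 12 h (1.93%, with 1.31% higher and 0.629% lower) gave 0.8454, 0.7767, 0.818, 0.8282 and, in replicate 5, 0.8162. Over these larger changes replicate 5 lay within the range of the other 4.

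**Figure D3:**
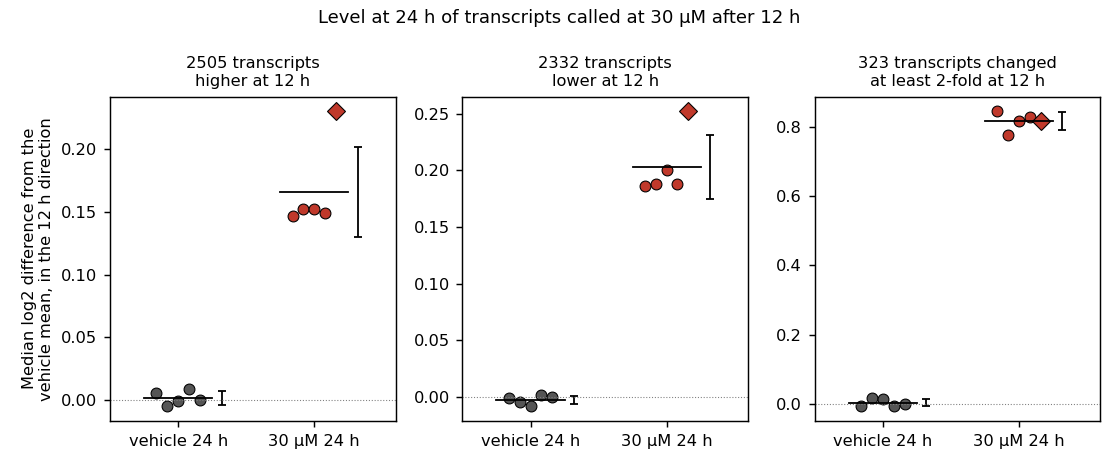
Median log2 difference from the 24 h vehicle mean (vertical axis), signed by the direction of change at 12 h, in each vehicle and 30 µM library at 24 h, for the transcripts called up at 12 h (left), called down at 12 h (middle) and called with a change of 2-fold or more (right); lines are means, bars are 1 SD on each side and the diamond is replicate 5. Replicate 5 lies above its group in the first 2 panels (0.23 and 0.252) and within it in the third (0.8162, with the others from 0.7767 to 0.8454).

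Transcripts called at 12 h were set against the calls at 24 h, where 10.5% of all tested transcripts were called higher and 10.5% lower with all 10 libraries, and 14.1% and 14.3% without replicate 5. Of the 2482 transcripts called higher at 12 h and tested at 24 h, 1146 (46.2%) were again called higher and 22 (0.886%) were called lower. Of the 2325 called lower, 1156 (49.7%) were again lower and 15 (0.645%) were higher. Rises of at least 2-fold at 12 h were called again in 140 of 197 (71.1%), and falls of at least 2-fold in 53 of 100. Their median sizes were 1.44 log2 at 12 h and 1.01 at 24 h for the rises, and 1.2 and 0.91 for the falls. When replicate 5 was left out, the shares called again were 51.6% for all rises, 57.0% for all falls, 70.1% for rises of at least 2-fold and 53.8% for falls of at least 2-fold. Calls in the opposite direction were then more, with 48 of the rises (1.93%) and 27 of the falls (1.16%). The 12 h sets were chosen for their size at 12 h, so a smaller median at 24 h is a description.

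Read from 24 h backwards, the changes were again larger at the time on which they were chosen. The 203 rises of at least 2-fold at 24 h that were tested at both times had a median of 1.37 log2 at 24 h and 0.96 at 12 h, and 88.2% of them were also above vehicle at 12 h. The 102 falls had medians of 1.22 and 0.75, and 94.1% were below vehicle at 12 h. Over all transcripts tested at both times, 72.1% had the same direction at both, or 68.1% without replicate 5. Without replicate 5 the medians were 1.43 and 1.01 over 205 rises, and 1.28 and 0.69 over 125 falls. Of these rises 89.8% were above vehicle at 12 h, and of these falls 88.8% were below it. Over the 16373 transcripts tested at both times the 12 h and 24 h log2 fold changes correlated with Pearson's r of 0.568 and Spearman's rho of 0.551. Without replicate 5 these were 0.495 and 0.478 over 16518 transcripts. The 2 contrasts share no library, but transcripts are not independent replicates, and no test was made.

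A test of the difference between the times found few transcripts. The interaction contrast of edgeR on 20 libraries called 650 of 17393 transcripts (3.74%), 286 with a higher log2 effect at 24 h than at 12 h (1.64%) and 364 with a lower one (2.09%). Without replicate 5 it called 1101 of 17604 (6.25%), 440 with a higher (2.5%) and 661 with a lower effect (3.75%). The median size of a called difference was 0.35 log2 with replicate 5 and 0.29 without it.

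Of the transcripts named above, ENSCPOT00000044307.1 had a different effect at the 2 times. At 12 h it reached 141 ± 21.1 CPM at 30 µM (SD, n = 5), with a log2 fold change of 8.06. The effect at 24 h was lower by a log2 difference of -1.67 (SE 0.48, edgeR adjusted p = 0.0792) and, without replicate 5, of -1.69 (SE 0.52, edgeR adjusted p = 0.0801). The rise of ENSCPOT00000025069.2 was 1.90 log2 at 12 h, and the difference of -0.06 did not pass (SE 0.07, edgeR adjusted p = 0.871). The fall of ENSCPOT00000002137.3 was -2.62 at 12 h with a difference of 0.61 (SE 0.35, edgeR adjusted p = 0.551). The fall of ENSCPOT00000000349.3 was -0.20 at 12 h with a difference of -0.02 (SE 0.05, edgeR adjusted p = 0.958). None of these last 3 passed without replicate 5 either, with adjusted p = 0.215, 0.463 and 0.894 by edgeR.

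The 40 µM group at 24 h was compared with the same vehicle libraries, so its values are only set beside those at 30 µM. At 40 µM, 4608 of 16672 transcripts were called (27.6%), and only transcripts tested in both contrasts are set side by side. The 202 of these that rose at least 2-fold at 30 µM had a median log2 fold change of 1.37 at 30 µM and 1.47 at 40 µM. The 108 that fell at least 2-fold had medians of -1.22 and -0.86. Without replicate 5 these were 1.42 and 1.47 over 199 rises, and -1.27 and -0.86 over 129 falls. The transcripts were chosen for their size at 30 µM, so the smaller falls at 40 µM are a description. ENSCPOT00000044307.1 stood at 137 ± 18.0 CPM at 40 µM against 28.0 ± 2.35 CPM at 30 µM (SD, n = 5 each). ENSCPOT00000025069.2 stood at 3453 ± 238 CPM, ENSCPOT00000002137.3 at 1.61 ± 0.485 CPM and ENSCPOT00000000349.3 at 6169 ± 294 CPM (SD, n = 5 each).

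Replicate 5 departed from its own group in more transcripts than any of the other 9 libraries did. Each 24 h library was set against the mean of the other libraries of its group. In replicate 5, 807 of the 16607 transcripts were at least 2-fold lower than in the other 4, while in the other 9 libraries 138 to 251 were. At least 2-fold higher were 225 in replicate 5 and 175 to 250 in the other 9. The 807 transcripts had a median of 4.22 CPM in the other 4 libraries at 30 µM, 3.84 in vehicle and 0.758 in replicate 5. Most had fractional estimates, which mark reads shared with another transcript, since 13.4% of them had whole estimates against 39.5% of all tested. With replicate 5 in the fit, 16 of the 807 were called (1.98%, against 21.0% of all 16607), and without it 110 were (13.6%, against 28.8%). The choice of these transcripts by the deviation of replicate 5 widens the spread of their group, so the low share with it in the fit follows from the choice.

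**Figure D4:**
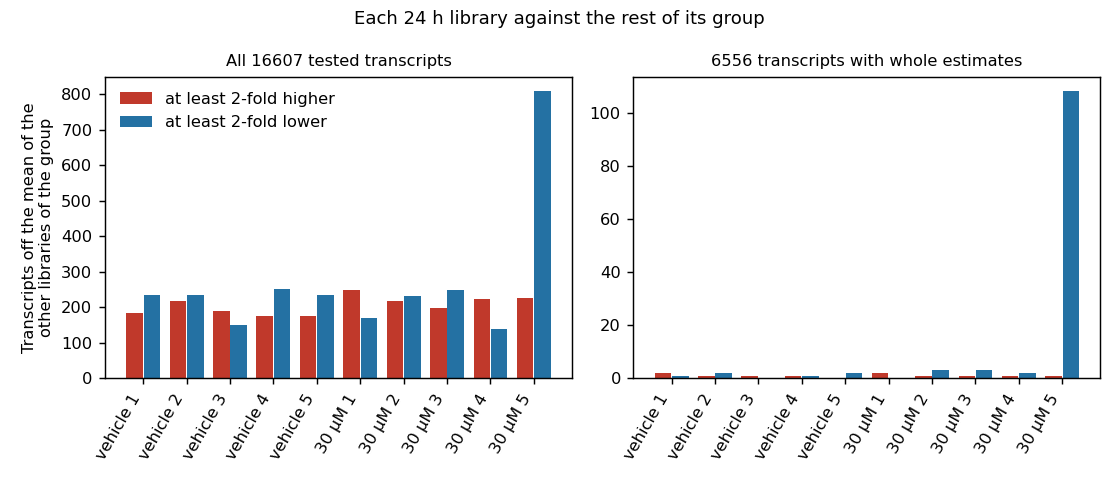
Number of transcripts (vertical axis, from 0) at least 2-fold higher (red) or lower (blue) in each 24 h library than the mean of the other libraries of its group, over all 16607 tested transcripts (left) and over the 6556 with whole estimates (right). Replicate 5 of 30 µM has 807 lower on the left and 108 on the right, against at most 251 and 3 in the other libraries.

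Among the 6556 transcripts with whole estimates, in which no sharing of reads shows, 108 were at least 2-fold lower in replicate 5, and 0 to 3 were in each of the other 9 libraries. Replicate 5 was the lowest of all 10 libraries for 103 of the 108. The median deviation was -1.2 log2, or 2.29-fold, and it ranged from -1.0 to -2.51. They were not confined to low levels, since 33 of them had at least 20 CPM in the other 9 libraries and the highest had 920 CPM. Their median length was 2321 bases, and that of all tested transcripts with whole estimates was 2166. In the other 4 libraries at 30 µM they were above the vehicle mean for 86 of the 108, by a median of 0.13 log2, though the choice of the 108 favours high values in these 4 libraries. With replicate 5 in the fit 8 of them were called (7.41%, against 26.0% of all transcripts with whole estimates). Without it 35 were called (32.4%, against 35.6%), 27 higher and 8 lower. As for the 807, the choice of the transcripts bears on these shares.

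The 12 h libraries and the 40 µM libraries had no part in choosing these 108 transcripts. Their median difference from the rest of its group was -0.59 log2 in replicate 5 of 30 µM at 12 h, where 103 of 108 were lower, and -0.46 in replicate 5 of 40 µM at 12 h, where 105 of 108 were lower. In the other libraries of the 4 groups not used, the median lay between -0.23 and 0.37. The count of lower transcripts was also high in some of these, with 100 of 108 in replicate 3 and 93 in replicate 2 of vehicle at 12 h and 92 in replicate 2 of 40 µM at 24 h. It was as low as 4 of 108 in replicate 1 of 40 µM at 12 h, so the 108 tended to lie on one side of their group together. Over all 6556 transcripts with whole estimates, 43.4% to 54.3% were lower than the rest of the group in each of the 30 libraries. Replicate numbers follow the order of the samples and do not show a shared culture. By the title numbers, 29 and 11 both hold position 5 in successive sets of 6, but the 40 µM library, title number 18, holds position 6. The 40 µM library at position 5, title number 17, had a median of 0.15 log2, with 24 of the 108 lower. Whether these 3 libraries share a culture, an animal or a preparation was not tested, and the identity of the 108 transcripts is not given here.

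**Figure D5:**
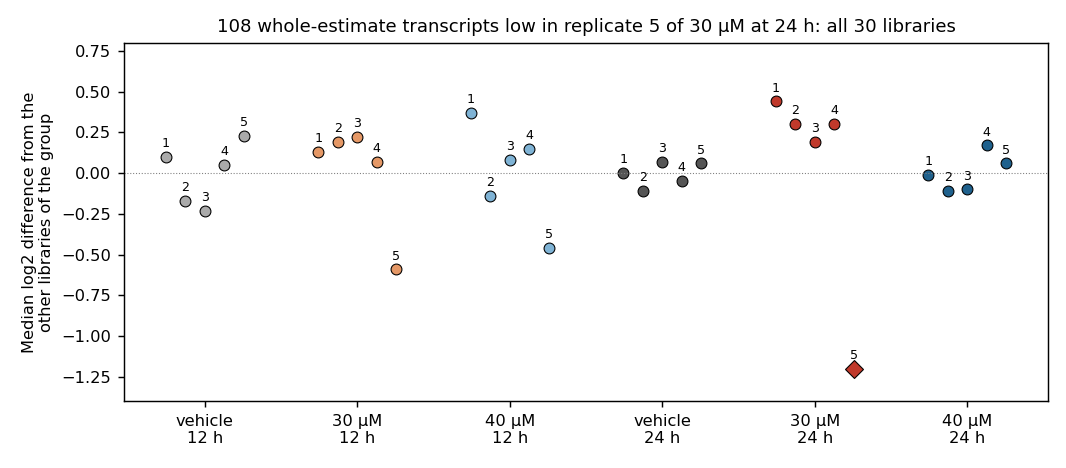
Median log2 difference (vertical axis) of each of the 30 libraries from the mean of the other libraries of its group, over the 108 whole-estimate transcripts that were at least 2-fold lower in replicate 5 of 30 µM at 24 h (diamond), with replicate numbers above the points. After the diamond at -1.2, by which the transcripts were chosen, the lowest points are replicate 5 of 30 µM at 12 h (-0.59) and replicate 5 of 40 µM at 12 h (-0.46).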

How the data were processed

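Paired-end reads came from stranded mRNA libraries made with poly-A enrichment, per the labels. Read length is left out because the sources disagree on it. The authors quantified each library against Ensembl guinea pig transcripts with kallisto 0.42.4 (version from the submitters' processing notes; Ensembl release not given in the sources used here), which shares reads that fit several transcripts. The deposited tables hold an estimated count, not normalised, and a TPM value for each transcript, with its length. Replicates were not pooled. No pair of the 10 libraries agreed within counting noise (chi-square per degree of freedom of at least 5.64), so none was treated as a second copy of another, which does not show that they were separate cultures. Of the 22380 transcripts detected in the 10 libraries, 9466 (42.3%) had estimates within 0.001 of a whole number in every one; the others share reads and their levels are less certain.

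The groups came from the agent and time labels, with replicates numbered 1 to 5 in sample order. The members and gene lists were chosen with earlier results of these data known. None of the 25824 identifiers matched the gene table at hand (0 matches), so the gene lists, the cell type markers and the check of the labelled cell type were not run, and no sequence is printed. The Sleuth test of the study was not used; its threshold of 0.1 was kept.

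Estimated counts were rounded and tested with edgeR 4.0.16 (quasi-likelihood F-test, TMM, filterByExpr, R 4.3.3), with Benjamini-Hochberg adjustment over all transcripts tested, on the 10 libraries and on 9 without title number 29. Standard errors were obtained by dividing the log2 fold change by the root of the F statistic. CPM used TMM factors over all 30 libraries. Single values per library were compared by exact permutation over libraries. For the 12 h response measure the vehicle reference was not recomputed under permutation. Identifiers printed were those called in the same direction in both fits, with whole estimates, a mean of at least 50 counts and no overlap of CPM, with the largest log2 fold change and the largest CPM difference in each direction. Alternatives were DESeq2 1.42.0, limma 3.58.1 (voom with library weights, and log2 TPM with pseudocounts of 1 and 0.1), another normalisation, no filter, all 30 libraries, a replicate block and each library left out. The fits were tested on simulated counts first. There edgeR recovered nearly all 2-fold changes but a minority of smaller ones, and DESeq2 made more false calls than its threshold allows. The simulation held 200 changed transcripts with 16830 tested. It gave every transcript the same biological coefficient of variation and set no library apart. The data differ in the share called, the size of most changes and replicate 5, so these rates need not hold for them.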

Additional observations from a re-analysis of the deposited data

Results flagged for a closer look

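In a group of 5, a library was singled out where its gap to the nearest other library exceeded 0.71 of the range of the group (Dixon's test at 95%). Chance alone singles out a value in about 1 in 20 sets. Of the 50 sets of 5 values examined, 10 had such a value, 7 of them in replicate 5 of 30 µM at 24 h. That library was already known to stand apart and the sets share transcripts, so the count is a description and not a test.

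In that library the median response over transcripts called at 12 h was 0.238, with the nearest other library at 0.1754. Over transcripts that rose at 12 h it was 0.23 (nearest 0.1526), and over those that fell 0.252 (nearest 0.2002). These 3 values overlap in their transcripts. Its first principal component score was 90.9 (nearest 10.1) and its second -28.5 (nearest 27.4). It had 807 transcripts at least 2-fold lower than the rest of its group (nearest 248), and 4675 CPM of ENSCPOT00000025069.2 (nearest 3917). The part of library preparation, of the culture and of the length dependence given above in these values was not tested.

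The other values far from their group were in vehicle. Replicate 2 had 1221 CPM of ENSCPOT00000025069.2 (nearest 1097) and a share of 0.931% of counts in the transcripts risen at least 2-fold (nearest 0.899%). Replicate 3, the most deeply sequenced vehicle library at 24 h with 33997378 counts, had 149 transcripts at least 2-fold lower than the rest of its group (nearest 234).

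The effect of 30 µM differed between 24 h and 12 h, by the interaction test of edgeR, for 650 of 17393 transcripts (3.74%) with all libraries and for 1101 of 17604 (6.25%) without replicate 5. Among the transcripts named by identifier it differed for ENSCPOT00000044307.1, by -1.67 log2.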

How the results depend on the processing

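The call count of 3492 stayed within 1.5 times under DESeq2, another normalisation, no filter, library weights, log2 TPM, all 30 libraries and a stricter threshold (2726 to 5200), and ran from 2973 to 4802 as each library was left out, the highest without replicate 5 of 30 µM. The 7 alternatives on the 9 libraries gave 3780 to 5515 calls, against 4802. Changes of at least 2-fold numbered 310 to 344 with a library left out, and 139 on log2(TPM + 1), a scale that shrinks changes of low transcripts. Where another library was left out in place of replicate 5, the calls shared with the 10 libraries numbered 2884 to 3013. The time difference, with leave-one-out added after seeing the data, gave 470 to 1101 calls, and 1101 without replicate 5 of 30 µM at 24 h. The 4 named transcripts kept their direction and call in 19 alternatives each.

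The share of the 10 most abundant transcripts moved between -0.0165 and 0.214 points and changed sign without replicate 1 of 30 µM (-0.0165). The difference in detected transcripts moved between -104 and 120 and changed sign without replicate 3 of vehicle (64.2), replicate 3 (36.5) or 5 (120) of 30 µM, or with at least 5 counts (6.8). The lowest exact permutation p among these was 0.0714, unadjusted, for the share without replicate 5 of 30 µM. The 12 h response measure ran from 0.17 to 0.188 with a library left out, each time at the smallest possible exact permutation p (0.00794). A vehicle library left out stayed in the reference mean, so the steadiness over vehicle libraries was fixed by the measure. As said above, these p-values are not a test of the response.

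A replicate block by position in the title numbers gave 1684 calls. Only 8 of the 10 libraries have a partner by position, and these 8 without a block, a fit added after seeing the data, gave 2524. Deviations of the 4 matched pairs correlated at -0.004 to 0.006, so no shared deviation by position was seen. This cannot show whether matched libraries shared a culture or a preparation.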
